A study of Mus musculus with 6 samples.

Results

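Tubulins are the proteins that microtubules are built of, and 10 of the 10041 rows in the deposited expression table carry the symbol of an alpha tubulin (Tuba1a, Tuba1b, Tuba1c, Tuba4a), a beta tubulin (Tubb2a, Tubb2b, Tubb4b, Tubb5, Tubb6) or the gamma tubulin Tubg1. These 10 genes were selected by name with the measured difference between oligomycin and DMSO in these libraries known, so that difference is described here without a test. The libraries came from mouse naive CD4 T cells polarised to Th17 cells, which make the cytokine IL-17, and the comparison asks how Th17 transcripts depend on oxidative phosphorylation. The 3 oligomycin cultures received 2.5 ng/ml of oligomycin, an inhibitor of the mitochondrial ATP synthase, and the 3 DMSO cultures received the vehicle. All 6 cultures were polarised for 48 h with IL-23 at 10 ng/ml, TGF-β1 at 2.5 ng/ml and IL-6 at 20 ng/ml, and were stimulated by anti-CD28 at 1 µg/ml and plate-bound anti-CD3e at 10 µg/ml. The labels name no genotype, strain or age of the mice. Nothing in the labels says whether the cultures of a group came from separate animals, so errors and p-values measure the spread between these libraries, which may be technical. Each number in the sample titles occurs with oligomycin and with DMSO, which may mark pairs of cultures. The columns of the table do not carry these numbers, so the fit ignores any such pairing.

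Alpha and beta tubulin form the dimers that polymerise into microtubules, and gamma tubulin, in ring complexes with its partner proteins, starts new microtubules at the centrosome. Mammals carry several genes, or isotypes, of each kind, whose proteins differ mostly at their C-terminal tails and which cells mix in their microtubules. In T cells microtubules form the mitotic spindle and carry the centrosome and secretory vesicles towards the contact with another cell. Tubulin mRNA is also subject to autoregulation: when free dimers are plentiful, the factor TTC5 recognises the first residues of a tubulin chain as it leaves the ribosome, and SCAPER and the CCR4-NOT deadenylase complex, recruited through it, shorten the mRNA's tail.

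The residues read by TTC5 lie at the very start of the coding sequence, which is shown here because it separates the 3 kinds of tubulin. The first 24 coding bases, from the GENCODE M21 annotation of the build GRCm38, are given with codons 2 to 4 in capitals. In the alpha tubulins these codons spell Arg-Glu-Cys and in the beta tubulins Arg-Glu-Ile, both starts on which autoregulation is known to act, while Tubg1 has other residues there. The start of Tubb6 is not printed.
Tuba1a: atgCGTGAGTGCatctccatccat
Tuba1b: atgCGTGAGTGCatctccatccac
Tuba1c: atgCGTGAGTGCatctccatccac
Tuba4a: atgCGCGAGTGCatttcagtccat
Tubb2a: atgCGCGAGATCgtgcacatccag
Tubb2b: atgCGAGAGATCgtgcacattcag
Tubb4b: atgAGGGAGATCgtgcacctgcag
Tubb5: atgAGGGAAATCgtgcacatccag
Tubg1: atgCCGAGAGAAatcatcacccta
Tuba1b and Tuba1c shared all 24 bases. Tubb4b and Tubb5 used the arginine codon AGG, against CGC in Tubb2a and CGA in Tubb2b.

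Expression was given in FPKM, fragments per kilobase of transcript after scaling for library size, a measure per length by which levels of different genes can be set side by side. It measures transcripts relative to the others in a library, and in bulk cultures fewer cells of a type and less RNA per cell cannot be told apart. T helper markers were present (5 of 6 in the table, summing to 464 to 552 FPKM with oligomycin and 480 to 544 FPKM with DMSO). All 4 Th17 markers were in the table and summed to 283 to 451 FPKM with oligomycin and 1667 to 1922 FPKM with DMSO. Of the markers of other cells, 0 of 5 for B cells, 0 of 6 for myeloid cells and 0 of 3 for erythroid cells had a row, and the 1 of 5 for cytotoxic T and NK cells, Cd8b1, stayed between 2.41 and 3.30 FPKM with oligomycin and between 2.63 and 3.12 FPKM with DMSO. Of 4 stromal and epithelial markers 2 had a row, Epcam and Pecam1, and summed to 7.70 to 13.8 FPKM with oligomycin and 5.90 to 7.15 FPKM with DMSO. Epcam measured 3.54, 5.62 and 6.40 FPKM with oligomycin and 0.638, 1.35 and 1.85 FPKM with DMSO, without overlap. Pecam1 overlapped, at 4.16 to 8.22 FPKM with oligomycin and 4.22 to 5.80 FPKM with DMSO. The part of these 2 markers in the results was not tested. Log2 changes below are oligomycin minus DMSO in log2(FPKM + 1), with a standard error (SE) from limma, and a row was called where its Benjamini-Hochberg adjusted p over all 9986 rows tested lay under 0.05.

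All 10 tubulins averaged lower in the oligomycin libraries, by amounts that ran from a slight difference in Tubb5, the most abundant of them, to a mean 0.150 times that with DMSO in Tubb6. In 7 of the 10 every oligomycin library lay below every DMSO library, and in Tuba1b, Tuba4a and Tubb5 the groups overlapped. The median log2 change of the 10 was -0.66, beside a median of -0.0044 over all rows tested. All 10 passed the filter on low values, and 5 of them (Tuba1a, Tuba1c, Tubb4b, Tubb6 and Tubg1) met the call rule as lower and 0 as higher. Over all rows tested, 30.2% were called, 16.1% as lower and 14.0% as higher with oligomycin, and in 24.3% every oligomycin library lay below every DMSO library. Since the genes were selected on this same contrast, nothing is read from these counts. Without DMSO replicate 1 the calls over all rows numbered 1887 and without DMSO replicate 3 they numbered 1769, against 3013 with every library; those called as lower numbered 1040 without DMSO replicate 2, against 1610.

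**Figure D1:**
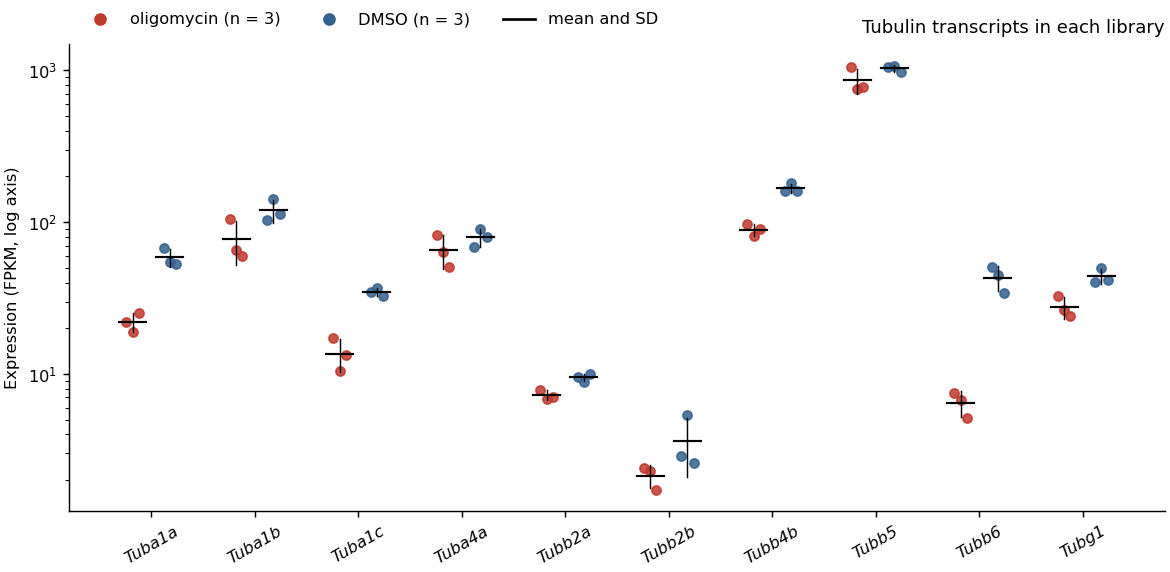
FPKM on a log axis of each tubulin in the 3 oligomycin libraries (left of each pair) and the 3 DMSO libraries (right), with points for libraries and bars for group means. Points of Tuba1b, Tuba4a and Tubb5 overlap between the groups, while Tubb6 lies between 5.09 and 7.54 FPKM with oligomycin and between 34.4 and 50.4 FPKM with DMSO.

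Among the alpha tubulins, Tuba1a, best known as the main alpha isotype of developing neurons, lies on chromosome 15 (98949847 to 98953501, minus strand, GRCm38). It measured 22.1, 18.8 and 25.3 FPKM in the oligomycin libraries and 67.7, 54.7 and 53.4 FPKM in the DMSO libraries. The groups were far apart, and even the highest oligomycin library was well under the lowest DMSO library. The means were 22.1 ± 3.25 FPKM with oligomycin and 58.6 ± 7.89 FPKM with DMSO (SD, n = 3 each), a log2 change of -1.37 (SE 0.15).

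Its neighbour Tuba1c, a widely expressed isotype at 99029891 to 99038105 on the plus strand of chromosome 15, showed a like difference. Tuba1c measured 17.2, 10.4 and 13.3 FPKM with oligomycin and 34.8, 36.7 and 32.8 FPKM with DMSO. The DMSO libraries were close together and all above the oligomycin libraries. Means of 13.6 ± 3.41 FPKM with oligomycin and 34.8 ± 1.96 FPKM with DMSO (SD, n = 3 each) gave a log2 change of -1.31 (SE 0.17).

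Tuba1b, also widely expressed and the most abundant of the alpha tubulins with DMSO, lies between 98931431 and 98934390 on the minus strand of chromosome 15. Its levels were 106, 65.3 and 60.0 FPKM with oligomycin and 103, 142 and 113 FPKM with DMSO. Oligomycin replicate 1 lay within the DMSO range, while the other oligomycin libraries lay below it. The means were 77.0 ± 24.9 FPKM with oligomycin and 119 ± 20.2 FPKM with DMSO (SD, n = 3 each), and the log2 change was -0.66 (SE 0.22). Without oligomycin replicate 1 the log2 change was -0.91 and the row met the call rule, which it did not with all libraries.

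Tuba4a encodes the alpha tubulin that lacks the tyrosine other alpha tubulins carry at their C-terminus, and lies on chromosome 1. It measured 82.8, 63.5 and 50.4 FPKM with oligomycin and 68.9, 89.8 and 79.5 FPKM with DMSO. The ranges overlapped, with oligomycin replicate 1 above 2 of the 3 DMSO libraries. Means of 65.6 ± 16.3 FPKM with oligomycin and 79.4 ± 10.4 FPKM with DMSO (SD, n = 3 each) gave a log2 change of -0.29 (SE 0.19). That value was -0.12 without oligomycin replicate 3 and -0.47 without oligomycin replicate 1. Scaled to the FPKM sum without small RNA rows, the log2 change of Tuba4a was -0.18. The deposited row covers 75210829 to 75219253, the same interval as the row of Stk16, a kinase gene read from the other strand, and the strand of the libraries is not given in the sources used here. Stk16 itself averaged 9.74 ± 1.72 FPKM with oligomycin and 11.3 ± 1.95 FPKM with DMSO (SD, n = 3 each).

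Of the beta tubulins, Tubb5, a widely expressed isotype, stood far above every other tubulin gene in the table. It lies between 35833920 and 35838301 on the minus strand of chromosome 17. Its levels were 1049.9, 753 and 783 FPKM with oligomycin and 1053, 1062.5 and 975 FPKM with DMSO. Oligomycin replicate 1 lay inside the DMSO range and the other oligomycin libraries were below it. The means were 862 ± 163 FPKM with oligomycin and 1030.0 ± 48.0 FPKM with DMSO (SD, n = 3 each), a log2 change of -0.27 (SE 0.18). The change was -0.42 without oligomycin replicate 1 and -0.16 when libraries were scaled to their FPKM sum without small RNA rows.

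Tubb4b, a widely expressed isotype that is also a main component of cilia, came next in level. It measured 97.2, 81.2 and 89.9 FPKM with oligomycin and 161, 180 and 160.0 FPKM with DMSO. Libraries of a group were close together and the groups were well separated. Averages of 89.4 ± 8.03 FPKM with oligomycin and 167 ± 11.4 FPKM with DMSO (SD, n = 3 each) gave a log2 change of -0.90 (SE 0.12). The row spans 25218745 to 25224702 on chromosome 2, minus strand, an interval that also takes in Fam166a on the other strand.

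Tubb6, a beta isotype that disrupts the microtubules of cultured hamster cells when overproduced, showed a larger difference than any other of the 10 genes. It lies on the plus strand of chromosome 18, between 67390731 and 67402749. Tubb6 measured 7.54, 6.79 and 5.09 FPKM with oligomycin and 50.4, 44.7 and 34.4 FPKM with DMSO. The spread within each group was small beside the distance between them. The means were 6.47 ± 1.26 FPKM with oligomycin and 43.2 ± 8.14 FPKM with DMSO (SD, n = 3 each), a log2 change of -2.56 (SE 0.18), and 0.350% of all rows tested had a lower one. As Tubb6 is low with oligomycin, the pseudocount mattered: the change was -2.72 with a pseudocount of 0.1 FPKM and -2.06 with a pseudocount of 5 FPKM.

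The paired neighbours Tubb2a and Tubb2b, best known from neurons, were the lowest of the 10 genes with DMSO. Tubb2a (chromosome 13, 34074280 to 34078008, minus strand) measured 7.87, 6.83 and 7.10 FPKM with oligomycin and 9.61, 8.89 and 9.98 FPKM with DMSO, a log2 change of -0.34 (SE 0.12). Its groups did not overlap, yet the gap was small, and among the settings tried the row met the call rule only without oligomycin replicate 1. Tubb2b (34127008 to 34130354, minus strand) measured 2.39, 2.29 and 1.73 FPKM with oligomycin and 2.89, 5.33 and 2.59 FPKM with DMSO. The DMSO mean of Tubb2b, 3.60 ± 1.502 FPKM, rested largely on DMSO replicate 2, against 2.14 ± 0.36 FPKM with oligomycin (SD, n = 3 each), and its log2 change of -0.51 (SE 0.23) was -0.26 without that library.

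Tubg1, the gamma tubulin of the ring complex, lies on the plus strand of chromosome 11 (101120131 to 101126419), with 11 exons in the annotated transcript used here against 4 in each of the alpha and beta members. It measured 32.8, 26.4 and 23.96 FPKM with oligomycin and 40.6, 50.2 and 41.7 FPKM with DMSO. All oligomycin libraries lay below all DMSO libraries, replicate 1 closest to them. The means of Tubg1 were 27.7 ± 4.55 FPKM with oligomycin and 44.1 ± 5.26 FPKM with DMSO (SD, n = 3 each), a log2 change of -0.66 (SE 0.15).

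**Figure D2:**
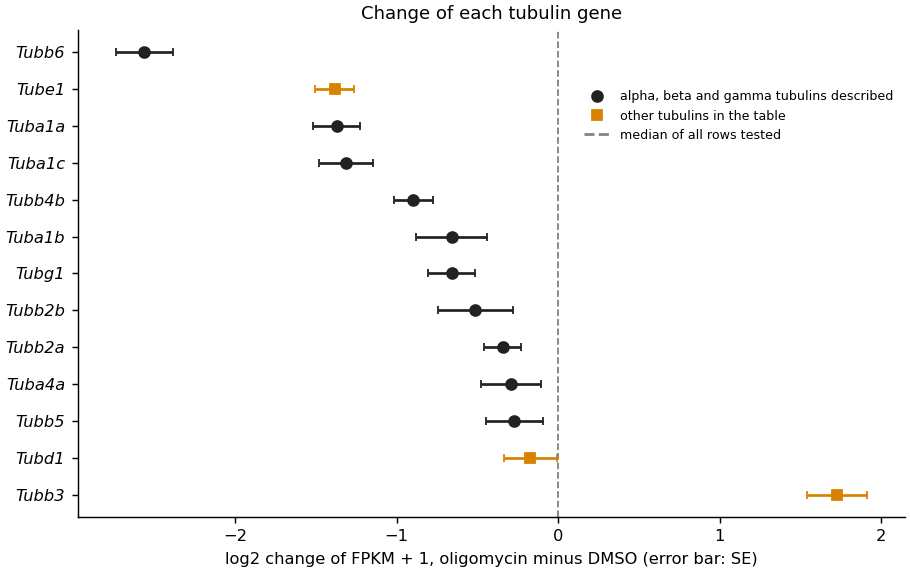
Log2 change of FPKM + 1, oligomycin minus DMSO, with its SE, for the 10 tubulins and for the other 3 tubulin genes in the table; the dashed line is the median of all rows tested. All 10 tubulins lie left of the line, from -2.56 for Tubb6 to -0.27 for Tubb5, and among the other 3 genes Tubb3 lies right of it.

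The order of levels also differed between the groups. With oligomycin it ran Tubb5, Tubb4b, Tuba1b, Tuba4a, Tubg1, Tuba1a, Tuba1c, Tubb2a, Tubb6 and Tubb2b. With DMSO it ran Tubb5, Tubb4b, Tuba1b, Tuba4a, Tuba1a, Tubg1, Tubb6, Tuba1c, Tubb2a and Tubb2b. With oligomycin the ranges of Tubb4b and Tuba1b, Tuba1b and Tuba4a, Tubg1 and Tuba1a, and Tubb2a and Tubb6 overlapped, and with DMSO those of Tubg1 and Tubb6 and of Tubb6 and Tuba1c did; other neighbours in the order did not overlap. Tubb6 thus stood among Tubg1 and Tuba1c with DMSO but beside Tubb2a with oligomycin.

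Summed over isotypes, alpha tubulin came to 228, 158 and 149 FPKM with oligomycin and 274, 323 and 279 FPKM with DMSO, without overlap. Beta tubulin summed to 1165, 850.3 and 887 FPKM with oligomycin and 1277, 1302 and 1182 FPKM with DMSO. Both sums were lower with oligomycin, alpha tubulin by the larger factor: the ratio of the beta to the alpha sum was 5.48 ± 0.43 with oligomycin and 4.30 ± 0.32 with DMSO (SD, n = 3 each). Without Tubb5, the beta tubulins averaged 105 ± 9.06 FPKM with oligomycin and 224 ± 16.2 FPKM with DMSO. All 10 genes together took 0.362%, 0.276% and 0.288% of the FPKM sum outside small RNA rows with oligomycin and 0.385%, 0.396% and 0.383% with DMSO.

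The make-up of each pool differed as well. Tubb5 supplied 90.1%, 88.6% and 88.3% of the beta sum with oligomycin and 82.4%, 81.6% and 82.5% with DMSO. Tubb6 supplied 0.673% ± 0.115 of it with oligomycin and 3.43% ± 0.52 with DMSO, and Tubb4b 9.34% ± 0.91 with oligomycin and 13.3% ± 0.63 with DMSO (SD, n = 3 each). So the abundant isotype made up more of the beta pool with oligomycin, and Tubb4b and Tubb6 less, with no overlap in these 3 shares. Tuba4a supplied 36.4%, 40.2% and 33.8% of the alpha sum with oligomycin and 25.1%, 27.8% and 28.5% with DMSO. Tuba1c supplied 7.69% ± 1.18 with oligomycin and 11.9% ± 0.68 with DMSO (SD, n = 3 each), again without overlap. The shares of Tuba1a (12.9% ± 3.74 with oligomycin and 20.2% ± 3.98 with DMSO) and Tuba1b (42.7% ± 3.27 with oligomycin and 40.7% ± 3.20 with DMSO) overlapped between the groups (SD, n = 3 each).

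**Figure D3:**
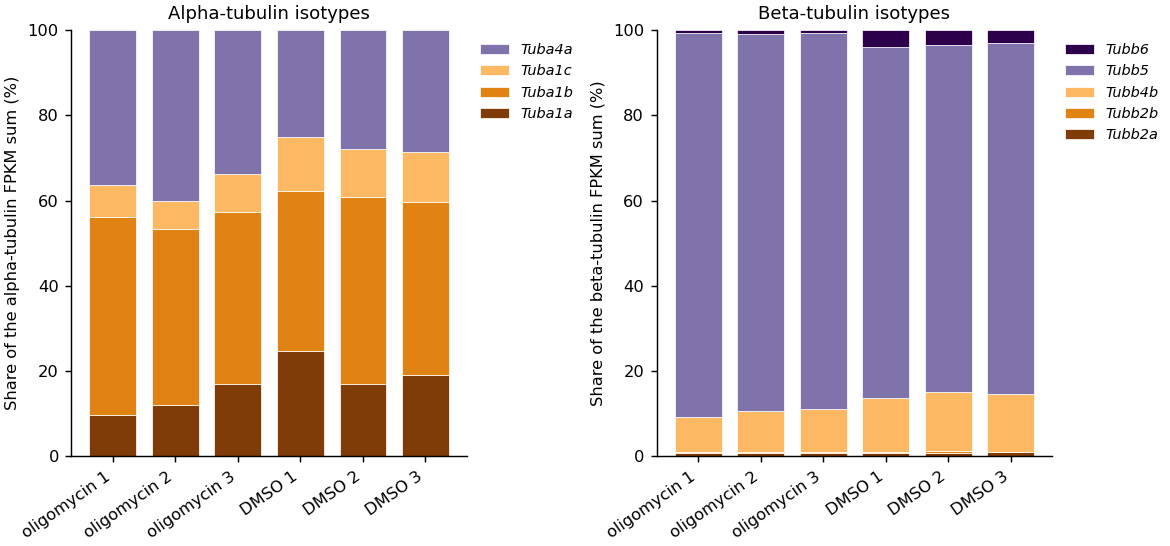
Share of each isotype in the alpha (left) and the beta (right) FPKM sum, in percent, as a stacked bar for each of the 3 oligomycin and 3 DMSO libraries. On average Tubb5 holds 89.0% of the beta sum with oligomycin and 82.2% with DMSO. Tuba4a averages 36.8% of the alpha sum with oligomycin and 27.1% with DMSO.

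Isotypes are so alike that reads can match several of them, and how the authors treated such reads is not given in the sources used here. In annotated transcripts (GENCODE M21), 27.1% of the 50-base windows of Tuba1a, 26.2% of those of Tuba1b and 39.0% of those of Tuba1c occurred in no other gene. The coding sequences of Tuba1a and Tuba1b were 98.3% identical, and those of Tuba1b and Tuba1c 98.4%. Values of these 3 genes are therefore uncertain as single genes. Their sum, which depends less on how reads are divided among them, was 145, 94.5 and 98.7 FPKM with oligomycin and 206, 233 and 199.6 FPKM with DMSO, without overlap. Tubb2a and Tubb2b were 96.5% identical in their coding sequence, with 50.4% and 60.7% of their windows unique, and together measured 10.3, 9.12 and 8.82 FPKM with oligomycin and 12.5, 14.2 and 12.6 FPKM with DMSO. In Tubb4b 49.1% of windows were unique, and its copies lay mainly in pseudogenes. Tubg1 shared 13.9% of its windows with Tubg2, a near copy that has no row in the table. Windows of Tuba4a (98.9% unique), Tubb5 (99.9%) and Tubb6 (100%) had almost no copy in another annotated transcript read in its own direction. Genes on the opposite strand were not searched, and the row of Tuba4a shares its interval with Stk16 there. These 3 genes hold both the smallest and the largest log2 change among the 10, those of Tubb5 and Tubb6.

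**Figure D4:**
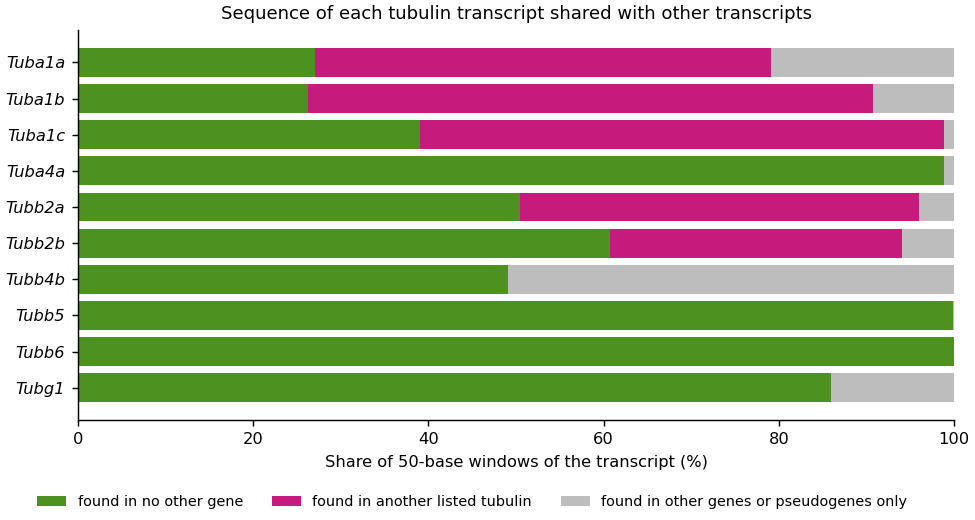
Percent of the 50-base windows of each transcript that occur in no other gene, in another listed tubulin or in other genes. Tuba1a, Tuba1b and Tuba1c have 26.2% to 39.0% unique windows, and Tuba4a, Tubb5 and Tubb6 98.9% to 100%.

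Promoter sequence was at hand for 7 of the 10 genes (Tuba1a, Tuba1b, Tuba1c, Tuba4a, Tubb2a, Tubb4b and Tubb5), from RefSeq (GRCm38.p6), as 250 bases before and 50 after the start site. Both strands were searched for CCAAT, bound by NF-Y, and for GGGCGG, bound by the Sp1 family. The TATA box was searched as TATAAA and the CHR element of cell cycle genes as TTTGAA. The E-box was searched as CACGTG and the core of hypoxia response elements as ACGTG, which overlaps the E-box. CCAAT stood in Tuba1a, Tuba1c, Tubb4b and Tubb5, 4 of 7 promoters, against 38.6% of the promoters of genes in the table and 37.4% of all promoters. GGGCGG stood in 6 of 7 (64.7% of table genes, 35.7% of all), TATAAA in Tubb2a and Tubb4b (6.51% of table genes, 13.6% of all), TTTGAA in Tubb4b alone (11.7% and 17.9%), CACGTG in Tubb5 alone (10.6% and 7.15%) and ACGTG in Tubb5 alone (27.0% and 19.6%). The TATAAA of Tubb4b lay after the annotated start site, so positions given relative to that site are uncertain. CCAAT was thus found in 3 genes called as lower and in Tubb5, whose groups overlapped. It was absent from Tuba1b, Tuba4a and Tubb2a, which were not called. CCAAT also stood, as 1 copy, in the promoter of Tubb3, a tubulin outside the 10 that was higher with oligomycin. Tubb3 passed the filter through its oligomycin libraries alone. Tubb6 and Tubg1, also called as lower, had no promoter sequence at hand. As the 10 genes were selected on this contrast, nothing is read from how CCAAT and the calls coincide. Such a match is a description of letters and no binding site. The promoters of the 4 members with CCAAT are printed so that its copies, in capitals (CCAAT, or ATTGG where it lies on the other strand), can be compared. Tuba1a is at chr15:98953452-98953751 (minus strand), Tuba1c at chr15:99029641-99029940 (plus), Tubb4b at chr2:25224653-25224952 (minus) and Tubb5 at chr17:35838252-35838551 (minus).
Tuba1a: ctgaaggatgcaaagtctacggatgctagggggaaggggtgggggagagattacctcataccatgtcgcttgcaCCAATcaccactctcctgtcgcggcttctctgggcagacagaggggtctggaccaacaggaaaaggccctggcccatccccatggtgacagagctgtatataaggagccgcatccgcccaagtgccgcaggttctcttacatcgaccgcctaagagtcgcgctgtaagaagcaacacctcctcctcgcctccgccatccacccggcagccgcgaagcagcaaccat
Tuba1c: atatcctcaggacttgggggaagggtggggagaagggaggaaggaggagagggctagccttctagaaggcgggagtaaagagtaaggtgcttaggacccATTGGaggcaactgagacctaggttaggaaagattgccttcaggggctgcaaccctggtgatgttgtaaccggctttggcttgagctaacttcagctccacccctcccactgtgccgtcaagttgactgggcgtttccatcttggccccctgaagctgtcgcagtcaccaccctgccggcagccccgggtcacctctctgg
Tubb4b: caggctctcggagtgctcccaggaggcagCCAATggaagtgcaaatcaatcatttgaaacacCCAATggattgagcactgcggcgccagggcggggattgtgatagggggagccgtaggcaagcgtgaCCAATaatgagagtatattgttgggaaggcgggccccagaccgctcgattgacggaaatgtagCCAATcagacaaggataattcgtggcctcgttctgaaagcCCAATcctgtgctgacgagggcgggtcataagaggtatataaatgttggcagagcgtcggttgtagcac
Tubb5: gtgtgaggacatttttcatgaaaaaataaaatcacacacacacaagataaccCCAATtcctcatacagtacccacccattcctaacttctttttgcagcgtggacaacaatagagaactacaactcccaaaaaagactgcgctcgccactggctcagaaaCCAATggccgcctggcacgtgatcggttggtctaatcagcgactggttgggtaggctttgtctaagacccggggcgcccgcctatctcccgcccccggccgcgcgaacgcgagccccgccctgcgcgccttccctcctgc
Tubb4b held 5 copies of CCAAT, the last starting 19 bases before the annotated start site, Tubb5 held 2, and Tuba1a and Tuba1c held 1 each.

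The 10 genes were selected on a shared group difference, which any likeness of their patterns over all libraries contains. Pearson r between pairs of them over the 6 libraries ran from 0.418 (Tuba1a and Tuba4a) to 0.990 (Tuba1c and Tubb4b). Among the DMSO libraries, replicate 1 was the highest for Tuba1a and the lowest for Tuba1b and Tuba4a. The mean level of the 10, each gene centred on its own mean in log2(FPKM + 1), was -0.21, -0.55 and -0.57 with oligomycin and 0.42, 0.57 and 0.34 with DMSO, so that oligomycin replicate 1 lay nearest to DMSO. Among rows outside the family, the 6 whose pattern over the 6 libraries was most like this mean were Map2k1 (a kinase of the ERK pathway, Pearson r 0.99908), Eno1 (the glycolytic enzyme enolase, 0.99871), Fosl2 (an AP-1 transcription factor, 0.99791), Bsg (basigin, a partner of lactate transporters, 0.99754), Maged2 (0.99730) and Scarb1 (a lipoprotein receptor, 0.99721). They were picked from 7698 rows for this likeness, and points share the group difference and the libraries, so no p is given. The row of Bsg spans a wide interval, 79697305 to 80369637 on chromosome 10. Which other genes lie in that interval was not examined, so its values are uncertain as those of basigin alone.

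Tubulin genes outside the 10 did not all move the same way. Of 10 further tubulin genes listed, 3 had a row. Tube1 encodes epsilon tubulin, needed for the triplet microtubules of centrioles. It fell to 2.83, 2.94 and 3.27 FPKM with oligomycin, against 9.40, 9.57 and 9.38 FPKM with DMSO (log2 change -1.38, SE 0.12, adjusted p = 0.000133), with a gap many times the spread of either group. Tubb3, the beta isotype used as a marker of neurons, rose instead. It measured 4.06, 5.92 and 3.72 FPKM with oligomycin and 0.612, 0.690 and 0.680 FPKM with DMSO (log2 change 1.73, SE 0.19, adjusted p = 0.000405). Its DMSO values lie under the minimum of 1 FPKM, so Tubb3 was tested through its oligomycin libraries alone and dropped out of the test when any of these 3 was left out. All 50-base windows of Tubb3 were unique to it (100%). Tubd1, delta tubulin, measured 3.92, 2.70 and 3.78 FPKM with oligomycin and 3.73, 3.74 and 4.54 FPKM with DMSO and did not pass the test (log2 change -0.17, SE 0.16, adjusted p = 0.444). The rows of Tube1 (also over Ccn6) and Tubb3 (also over Gm20388) cover another annotated gene.

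Of 20 genes of the gamma tubulin ring complex and its recruitment, 19 were tested, 4 fell (21.1%) and 1 rose (5.26%). Over all rows tested, 16.1% were called as lower and 14.0% as higher. The median log2 change of the list was -0.083 as deposited and 0.024 when scaled to the sum without small RNA rows. The genes that fell were Tubgcp4, a ring subunit, and 3 of the 7 tested genes of augmin, the complex that branches new microtubules off old ones. The augmin gene Haus4 averaged 26.2 ± 4.58 FPKM with oligomycin and 45.2 ± 4.08 FPKM with DMSO (SD, n = 3 each), a log2 change of -0.78 (SE 0.14, adjusted p = 0.00521). Haus5 changed by -0.60 (adjusted p = 0.0161), Haus6 by -0.50 (adjusted p = 0.0277) and Tubgcp4 by -0.63 (adjusted p = 0.0259) on the log2 scale. Akap9, a scaffold of the centrosome and Golgi, rose by 0.58 (adjusted p = 0.0188). The ring subunits Tubgcp2, Tubgcp3, Tubgcp5 and Tubgcp6, named after their values were seen, had log2 changes between -0.18 and 0.14 and did not pass, and the augmin genes Haus1 (-0.35, adjusted p = 0.229), Haus2 (0.11, adjusted p = 0.656), Haus7 (-0.07, adjusted p = 0.763) and Haus8 (-0.02, adjusted p = 0.936), likewise named afterwards, did not pass and overlapped between the groups. Haus4 kept its call with any library left out. Haus5 and Akap9 were lost without DMSO replicate 2 (adjusted p = 0.0586 and 0.0621) or DMSO replicate 3 (adjusted p = 0.0506 and 0.0628). Tubgcp4 kept its call without oligomycin replicate 2 or DMSO replicate 1 and otherwise reached 0.0523 to 0.0955. Haus6 kept its call without oligomycin replicate 1 or DMSO replicate 2 and otherwise reached 0.0583 to 0.103. Scaling to the sum without small RNA rows also ended the calls of Tubgcp4 (0.0641) and Haus6 (0.0658). The rows of Tubgcp4 (with Trp53bp1) and Haus6 (with Scarna8) share their locus with another row, so reads may be divided wrongly between them. With oligomycin replicate 3 or DMSO replicate 2 left out 2 genes fell, and with DMSO replicate 3 left out 1 fell. The median was -0.14 without DMSO replicate 1 and -0.047 without DMSO replicate 2.

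Newly made tubulin chains are folded by prefoldin and the chaperonin CCT and then joined into dimers by the cofactors TBCA to TBCE. Of 15 chaperonin and prefoldin genes tested (16 listed), 1 fell and 1 rose (6.67% each, against 16.1% and 14.0% of all rows tested). The median log2 change was -0.24. The faller was Tcp1, a CCT subunit, at 306 ± 49.7 FPKM with oligomycin and 448 ± 35.2 FPKM with DMSO (SD, n = 3 each), a log2 change of -0.56 (SE 0.16, adjusted p = 0.0297). Pfdn5, a prefoldin subunit, rose to 122 ± 4.65 FPKM with oligomycin, against 80.7 ± 10.2 FPKM with DMSO (SD, n = 3 each), a log2 change of 0.60 (SE 0.13, adjusted p = 0.00907). Cct8, another CCT subunit, changed by -0.42 (adjusted p = 0.0683) and Vbp1, a prefoldin subunit, by -0.41 (adjusted p = 0.0861), and neither passed; the row of Cct8 shares a locus with Usp16. Tcp1 was lost without each library other than oligomycin replicate 1 (adjusted p up to 0.106, without DMSO replicate 1) and with quantile normalization (0.0798), and Pfdn5 without DMSO replicate 3 (adjusted p = 0.0502). Without oligomycin replicate 1, 6 genes of this list fell. The list's median was -0.155 without oligomycin replicate 2, -0.095 with quantile normalization and -0.13 when scaled to the sum without small RNA rows.

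Of the 7 folding cofactor genes, 2 rose (28.6%) and 0 fell in limma, against 14.0% and 16.1% of all rows tested. At an unadjusted p under 0.05, 2 were higher and 1 lower, and the median log2 change was 0.14. Tbce, a cofactor that binds alpha tubulin, averaged 16.6 ± 1.26 FPKM with oligomycin and 12.1 ± 1.24 FPKM with DMSO (SD, n = 3 each), a log2 change of 0.43 (SE 0.12, adjusted p = 0.0293). Tbcel, its relative, changed by 0.33 (adjusted p = 0.0454). Tbca, which holds beta tubulin, changed by 0.24 (adjusted p = 0.338) and Arl2, a GTPase acting with the cofactors, by -0.32 (adjusted p = 0.105), and neither passed. Tbce missed the threshold with oligomycin replicate 3 left out (adjusted p = 0.0956), and likewise with DMSO replicate 1 (0.0861) or DMSO replicate 2 (0.0996) left out, and its row shares a locus with that of B3galnt2. Tbcel was lost with any library left out (0.0749 to 0.138), and Tbca passed with oligomycin replicate 2 left out (0.0442).

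Of the genes of tubulin mRNA autoregulation, 11 of 14 were tested, and 1 rose and 1 fell. These made 9.09% each, against 14.0% and 16.1% of all rows tested. The median log2 change was -0.067, but 0.043 when scaled to the sum without small RNA rows and 0.027 after quantile normalization. Scaper averaged 8.22 ± 1.18 FPKM with oligomycin and 4.54 ± 0.59 FPKM with DMSO (SD, n = 3 each), and its log2 level rose by 0.73 (SE 0.15, adjusted p = 0.00758). Ttc5 averaged 21.8 ± 2.57 FPKM with oligomycin and 17.0 ± 0.33 FPKM with DMSO (SD, n = 3 each) and did not pass (log2 change 0.33, SE 0.12, adjusted p = 0.0622). It passed without oligomycin replicate 1 (adjusted p = 0.0426) and when libraries were scaled to their sum without small RNA rows (adjusted p = 0.0289). Rqcd1, the CCR4-NOT subunit also named CNOT9, changed by -0.54 (adjusted p = 0.0267), a call lost without each library other than oligomycin replicate 1 (adjusted p 0.0638 to 0.0851), and its row shares a locus with those of Usp37 and Zfp142. The deadenylase Cnot7 changed by -0.41 (adjusted p = 0.0775) and passed only without oligomycin replicate 1 (adjusted p = 0.0296).

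Among enzymes that modify tubulin, 10 of 21 were tested and 3 fell, with 0 rising in limma (3 lower and 0 higher at an unadjusted p under 0.05; median log2 change -0.21). Hdac6 and Sirt2, which remove acetyl groups from alpha tubulin, were among them. Hdac6 averaged 5.70 ± 0.74 FPKM with oligomycin and 9.81 ± 1.91 FPKM with DMSO (SD, n = 3 each), a log2 change of -0.68 (SE 0.16, adjusted p = 0.0137). Sirt2 changed by -0.52 (adjusted p = 0.0323) and Ttll4, a glutamylase, by -0.47 (adjusted p = 0.0284). Ttll12, a further member of that enzyme family, changed by -0.30 and did not pass (adjusted p = 0.161), but did without oligomycin replicate 1 (0.0222). Without oligomycin replicate 3, DMSO replicate 2 or DMSO replicate 3, Hdac6 was the 1 call left of this list, with Sirt2 at 0.102 to 0.103 and Ttll4 at 0.0755 to 0.0995, and Ttll4 was also lost without oligomycin replicate 2 (0.0511). Scaling to the sum without small RNA rows ended the calls of Sirt2 (0.0627), whose row shares a locus with Gm19897, and Ttll4 (0.0663) as well.

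Of 36 genes for proteins that bind microtubules or set their dynamics, 26 were tested, 13 fell and 1 rose, with a median log2 change of -0.40. Those with the smallest p act at the spindle. Tacc3, which steadies spindle microtubules, averaged 23.0 ± 1.74 FPKM with oligomycin and 79.8 ± 4.61 FPKM with DMSO (SD, n = 3 each), a log2 change of -1.75 (SE 0.11, adjusted p = 4.2e-05). Prc1, which bundles the central spindle, changed by -1.66, Kif2c, a microtubule-depolymerising kinesin, by -1.88 and Tpx2, a spindle assembly factor, by -1.83 (adjusted p = 4.8e-05, 5.2e-05 and 7e-05). The gene that rose, Tacc1 (named after its values were seen), is a relative of Tacc3 and averaged 17.5 ± 1.78 FPKM with oligomycin and 8.14 ± 0.69 FPKM with DMSO (SD, n = 3 each; log2 change 1.01, SE 0.12, adjusted p = 0.000741).

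Dynein, the motor that runs towards the minus ends of microtubules, and its partner dynactin gave 23 tested genes of 26 (median log2 change -0.29). Among the 23, 6 fell (26.1%) and 1 rose (4.35%), against 16.1% and 14.0% of all rows tested. Nde1, a dynein regulator, changed by -0.75 (adjusted p = 0.0074), Dctn6, a dynactin subunit, by -0.69 (adjusted p = 0.00797) and Nudc by -0.68 (adjusted p = 0.0212). Dync1h1, the motor's heavy chain, rose to 33.6 ± 5.44 FPKM with oligomycin, against 22.1 ± 1.96 FPKM with DMSO (SD, n = 3 each; log2 change 0.58, SE 0.14, adjusted p = 0.0166). Without DMSO replicate 3, Dync1h1 reached an adjusted p of 0.0717 and Nudc of 0.0727; Nudc was also lost without DMSO replicate 2 (0.0674) or oligomycin replicate 3 (0.0676). Without oligomycin replicate 3 or any DMSO library, 3 genes of the list fell, and without oligomycin replicate 3 the median was -0.19.

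Most genes of cell division were also lower with oligomycin. Of 33 such genes, 29 fell (87.9%) and 0 rose in limma, against 16.1% and 14.0% of all rows tested. At an unadjusted p under 0.05, 30 were lower and 0 higher, and the median log2 change was -1.70. The 4 not called, named after their values were seen, were Mcm2 (-0.16), Mcm4 (-0.26), Mcm5 (-0.39) and Mcm6 (-0.06), genes of DNA replication. Other replication genes of the list, likewise named afterwards, did fall: Mcm3 (-0.69), Mcm7 (-0.50) and Pcna (-0.55). So did Tyms (-0.81), Rrm1 (-0.95) and Rrm2 (-1.37). Cdc20, the activator of the anaphase-promoting complex, averaged 20.9 ± 0.41 FPKM with oligomycin and 95.6 ± 7.12 FPKM with DMSO (SD, n = 3 each; log2 change -2.14, SE 0.11, adjusted p = 2.6e-05). Aurka, a mitotic kinase, changed by -1.93, Nusap1, a spindle protein, by -1.89 and Ube2c, the enzyme that works with Cdc20, by -2.55 (adjusted p = 2.9e-05, 3.6e-05 and 3.6e-05). The rows of Cdc20 (with Elovl1) and Nusap1 (with Oip5) share a locus with another row. The median centred level of the list was -0.68, -0.99 and -0.85 with oligomycin and 0.76, 0.83 and 0.87 with DMSO. The part of a change in dividing cells in the tubulin differences was not tested.

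Of the actin cytoskeleton, the other main filament system, 30 of 31 genes were tested, 9 fell and 0 rose in limma (10 lower and 2 higher at an unadjusted p under 0.05; median log2 change -0.21). Tpm4, a tropomyosin that coats actin filaments, averaged 83.7 ± 7.08 FPKM with oligomycin and 192 ± 5.28 FPKM with DMSO (SD, n = 3 each; log2 change -1.19, SE 0.12, adjusted p = 0.000244). Wdr1, which helps cofilin take filaments apart, changed by -0.85 (adjusted p = 0.00214), Arpc1a, a subunit of the branching complex Arp2/3, by -0.62 (adjusted p = 0.00512) and Tmsb10, which binds actin monomers, by -0.91 (adjusted p = 0.0106). Scaled to the FPKM sum without small RNA rows, the median of all rows shifted by 0.10 on the log2 scale and calls over all rows divided into 1915 higher and 1279 lower, against 1403 higher and 1610 lower as deposited. Under that scaling the count of tubulins called as lower stayed at 5, and 2 actin genes rose.

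**Figure D5:**
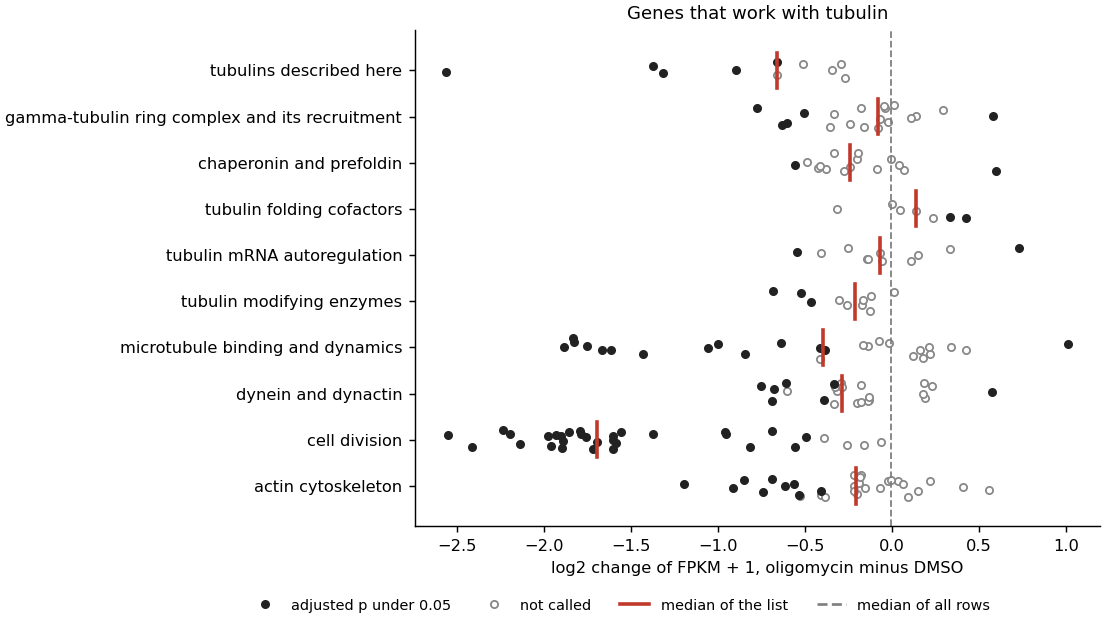
Log2 change of FPKM + 1, oligomycin minus DMSO, of every tested gene in the tubulins and in each list around them, with the median of each; filled points met the call rule. The cell division list lies lowest, with a median of -1.70, and the median of the tubulins is -0.66.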

How the data were processed

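RNA of 6 mouse Th17 cultures was sequenced. The deposited values are FPKM that the authors made on GRCm38 (mm10); the submitters' processing notes name Cuffdiff (2.2.1.3), Cuffnorm (2.2.1.1), Cufflinks (2.2.1.0) and TopHat2 (2.1.0), and how each was used is not given in the sources used here. FPKM sums ran from 1434028 to 2103404 per library. Of these, 185 small RNA rows took 80.8%, 82.2% and 80.2% with oligomycin and 71.1%, 78.0% and 77.7% with DMSO, without overlap between the groups. Low values held no common step, so depth is unknown and no counting interval is given. Columns carry a group and a number from 1 to 3, used as replicate names.

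Rows with at least 1 FPKM in at least 3 libraries (9986 of 10041) were tested as log2(FPKM + 1), which understates changes of low genes, with limma 3.58.1 (R 4.3.3): an intensity trend, the group alone, 2-sided, Benjamini-Hochberg over all rows. The method was tested on simulated data. The 10 tubulins, the gene lists and the tests were chosen with earlier results of these data known. Named genes are all tubulins in the table, the 4 smallest p of each list, every called gene where 6 or fewer were called, and the 6 most alike rows (mean of at least 5 FPKM). Sequences were read with Python 3.11.15 and Biopython 1.88. Alternatives were pseudocounts, filters, scalings, no trend, rows of unclear assignment and each library left out.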

Additional observations from a re-analysis of the deposited data

How the results depend on the processing

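All tested members kept a negative log2 change under each of the 14 alternatives. In each of these 5 members were called as lower, apart from the following. Without rows naming several genes or sharing a locus 6 were called (Tuba1b added), and without oligomycin replicate 1 it was 7 (Tuba1b and Tubb2a added). Over all rows, lower calls ran from 989 of 9883 without DMSO replicate 3 to 1861 of 9915 without oligomycin replicate 1. As the members were selected on this same contrast, nothing is read from their counts. Where values of lists moved, the cause was not tested. The cell division median was -1.83 with a pseudocount of 0.1 and -1.42 with a pseudocount of 5, at which the medians of modifying enzymes and microtubule binding genes were -0.11 and -0.27. At a minimum of 5 FPKM, of the other tubulins 0 rose and the median was -1.38, as fewer genes were tested. With quantile normalization, 0 chaperonin and prefoldin genes fell (median -0.095) and 2 actin genes rose (median -0.028), and the medians of autoregulation and dynein genes were 0.027 and -0.13. Scaled to the sum without small RNA rows, 2 ring complex genes rose and 2 fell (median 0.024), 2 autoregulation genes rose (median 0.043), 1 modifying enzyme fell (median -0.13), 2 microtubule binding genes rose (median -0.30), 3 dynein genes fell (median -0.18), 2 actin genes rose (median -0.10) and the cofactor median was 0.24. With no intensity trend 1 cofactor rose. Without rows naming several genes or sharing a locus, 2 ring complex genes fell, 1 cofactor rose, 0 autoregulation genes fell and the microtubule binding median was -0.29.

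With 1 library left out, calls over all rows ran from 1769 to 3248 (780 to 1387 higher, 989 to 1861 lower). The other tubulins had 0 to 1 higher and medians from -0.83 to -0.10. Ring complex genes had 0 to 1 higher, 1 to 4 lower and medians from -0.14 to -0.047. Chaperonin and prefoldin genes had 0 to 1 higher, 0 to 6 lower and medians from -0.33 to -0.155, cofactors 0 to 2 higher, autoregulation genes 1 to 2 higher and 0 to 2 lower, and modifying enzymes 1 to 4 lower. Microtubule binding medians ran from -0.44 to -0.32. Dynein genes had 0 to 1 higher, 3 to 5 lower and medians from -0.30 to -0.19, and actin genes 0 to 1 higher. No paired analysis was possible because the numbers in the sample titles are on no column of the table. Reads per gene are unknown, so the low levels of Tubb2b and of Tubb3 with DMSO carry an unknown counting error.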

Other observations

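A row for the processed pseudogene Tubb2a-ps2, named after its values were seen, measured 3.16, 1.82 and 3.40 FPKM with oligomycin and 4.52, 4.55 and 6.02 FPKM with DMSO, without overlap (log2 change -0.69, SE 0.20, adjusted p = 0.0338 in limma). Its transcript shares 50-base windows with Tubb2a and Tubb2b, so reads of the 3 genes may not be told apart.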
